A study of Mus musculus with 6 samples.

Results

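The genes described here are 7 long noncoding RNAs known for staying in the nucleus: Malat1, Neat1, Meg3, Rian, Mirg, Airn and Kcnq1ot1. They were taken by name from the 53700 genes of the deposited tables. Whole testes were taken from mice aged 45 days after birth, 3 with the genotype label MSL3 WT and 3 with the label MSL3 cKO, a conditional knockout of a floxed Msl3 allele in which part of the gene can be removed by a recombinase. Both groups carry the strain label Msl3em1Forni/C57BL/6J, and each library is labelled as a biological replicate. Total RNA was sequenced in single-end reads. The recombinase line, the cells in which it acts, the deleted exons and the library kit are not given in the sources used here. Cell fractions were not separated, so where in the cell these RNAs lay was not measured.

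Long noncoding RNAs of this kind act at or near chromatin and are not translated. Malat1 sits in nuclear speckles, which store splicing factors, and Neat1 is the scaffold of paraspeckles, bodies that hold RNA-binding proteins and edited transcripts. The ends of Malat1 and of the long form of Neat1 are cut by RNase P, which releases a small tRNA-like RNA and leaves a triple helix that protects the long RNA in place of a poly(A) tail. Meg3, Rian and Mirg are made from the maternal chromosome of the Dlk1-Dio3 imprinted domain and carry small RNAs within them. Airn and Kcnq1ot1 are paternal transcripts that silence neighbouring imprinted genes in cis in other tissues.

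The libraries held 56991431 to 73766444 reads assigned to genes on the counted strand, and that strand took 96.0% to 96.2% of the reads in both strand columns. Msl3 had 942, 1226 and 990 reads in WT replicates 1 to 3 and 1170, 829 and 923 in the cKO replicates, with overlapping groups (log2 fold change -0.12, edgeR quasi-likelihood adjusted p 0.551). The groups are therefore named by their labels, and each direction compares libraries so labelled. Markers of testis cell types were present in all libraries. The 12 Sertoli markers summed to 1646 to 2127 CPM (counts scaled to library size) and the 10 markers of elongating spermatids to 17806 to 22171 CPM. Of 8 markers of epididymis and rete testis, 1 was at 0 in every library and the list summed to 25.9 to 32.2 CPM.

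None of the 7 RNAs separated the groups, and 4 of them rose with another property of the libraries, the share of reads outside annotated genes. The reads of the 7 genes together ran from 66.2 to 152.7 CPM between the lowest and the highest library. The 4 were Malat1, Neat1, Meg3 and Kcnq1ot1, and Malat1 had the smallest p of all 21902 tested genes in that comparison. With a replicate block in the model, 0 members and 0 genes were called on the share. The share is low in both replicates 1 and high in both replicates 2, so that fit could hardly separate it from the replicate number. The SE of the Malat1 slope was 0.349 with the block and 0.071 without it.

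The 3′ ends of Malat1 and Neat1 are shown because they carry the element that both RNAs share. Malat1 (ENSMUSG00000092341, mm10 chr19:5795690-5802672, minus strand) is annotated as a single exon block of 6983 bases. Neat1 (ENSMUSG00000092274, chr19:5824708-5845478, minus strand) is the gene after next in annotated order and is a single block of 20771 bases. The last 110 bases before the RNase P cut, chr19:5795982-5796091 for Malat1 and the annotated end chr19:5824708-5824817 for Neat1, are written in the direction of transcription. Capitals mark runs of at least 11 bases found in both, which hold the U-rich motifs and the A-rich tract of the triple helix.
Malat1 end: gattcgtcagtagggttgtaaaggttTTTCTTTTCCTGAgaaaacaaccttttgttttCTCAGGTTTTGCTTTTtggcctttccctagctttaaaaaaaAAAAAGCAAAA
Neat1 end: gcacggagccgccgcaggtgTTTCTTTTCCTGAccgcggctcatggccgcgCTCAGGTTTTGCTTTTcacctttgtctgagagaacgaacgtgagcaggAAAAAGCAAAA

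Next to each end lies the tRNA-like RNA, 58 bases at chr19:5795924-5795981 for Malat1 and 56 bases at chr19:5824652-5824707 for Neat1. Capitals mark runs of at least 8 bases found in both.
Malat1 tRNA-like: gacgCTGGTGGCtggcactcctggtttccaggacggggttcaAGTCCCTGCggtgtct
Neat1 tRNA-like: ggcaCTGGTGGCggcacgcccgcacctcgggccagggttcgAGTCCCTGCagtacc

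Malat1 was the most abundant of the 7. It had 1548, 4896 and 3095 reads in WT replicates 1 to 3 and 2001, 5176 and 3694 in cKO replicates 1 to 3. Scaled to library size these were 26.3, 75.4 and 49.8 CPM in WT and 27.4, 92.5 and 63.2 CPM in cKO. Replicate 1 of each group was low and replicate 2 of each group was high, and the groups overlapped. The means were 50.5 ± 24.6 CPM (SD, n = 3) in WT and 61.1 ± 32.6 CPM (SD, n = 3) in cKO, so the difference was smaller than the spread within either group. Relative to WT the cKO level was 120.5%, within 95% limits of 67.5% and 215% (log2 fold change 0.27, SE 0.38, edgeR quasi-likelihood adjusted p 0.799). The highest library held 3.51 times the level of the lowest, and 99.5% of all tested genes varied less within groups on the log2 scale.

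Neat1 had 1233, 2247 and 1599 reads in WT and 1473, 1765 and 1348 in cKO. Its levels were 20.98, 34.6 and 25.7 CPM in WT and 20.2, 31.5 and 23.1 CPM in cKO. As for Malat1, replicate 1 was lowest and replicate 2 highest in each group, over a narrower range of 1.72 times. The means were 27.1 ± 6.93 CPM (SD, n = 3) and 24.9 ± 5.90 CPM (SD, n = 3), with overlapping groups. Relative to WT the cKO level was 91.8%, within 95% limits of 70.1% and 120.2% (log2 fold change -0.12, SE 0.18, edgeR quasi-likelihood adjusted p 0.802).

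Of the maternal RNAs of the Dlk1-Dio3 domain, Meg3 (ENSMUSG00000021268, chr12:109541001-109571726, plus strand, 8 exon blocks of 18089 bases in all) stands first in the direction of transcription. Its levels were 2.70, 6.06 and 4.47 CPM in WT and 2.77, 4.16 and 4.52 CPM in cKO, from 159 to 393 reads. Replicate 1 was lowest in both groups, and WT replicate 2 was the highest library. The cKO level was 85.8% of WT, with 95% limits of 58.8% and 125% (log2 fold change -0.22, SE 0.25, edgeR quasi-likelihood adjusted p 0.733).

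Rian (ENSMUSG00000097451, chr12:109603940-109661716, plus strand, 19 exon blocks of 18234 bases), the host of a large group of box C/D small nucleolar RNAs, had 3.30, 4.89 and 3.27 CPM in WT and 2.66, 3.52 and 3.10 CPM in cKO. WT replicate 2 stood above the other 5 libraries, and the groups overlapped in cKO replicate 2 alone. Its log2 fold change in cKO was -0.31 (SE 0.17, unadjusted p 0.0953, edgeR quasi-likelihood adjusted p 0.436). This was the smallest p of the 6 tested members.

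Mirg (ENSMUSG00000097391, chr12:109729764-109749460, plus strand, 14 exon blocks of 7292 bases), a host of microRNAs, differed from the others in how little it varied. It had 11.96, 10.4 and 9.60 CPM in WT and 10.4, 9.95 and 10.1 CPM in cKO, a range of 1.25 times. The cKO level was 95.2% of WT, with 95% limits of 82.3% and 110.1% (log2 fold change -0.07, SE 0.096, edgeR quasi-likelihood adjusted p 0.785). Although these 3 RNAs lie in a row on the same strand, Mirg and Rian did not vary together (Pearson r 0.019 over the 6 libraries), whereas Meg3 and Rian did (r 0.75). These correlations describe 6 libraries that share depth and scaling, and the same holds for those below.

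Kcnq1ot1 (ENSMUSG00000101609, chr7:143203458-143296549, minus strand) is annotated as 93092 unspliced bases inside the Kcnq1 gene and opposite to it. It had 133, 547 and 253 reads in WT and 190, 607 and 530 in cKO. These were 2.26, 8.43 and 4.07 CPM in WT and 2.60, 10.8 and 9.07 CPM in cKO, the widest relative range of the 7, at 4.79 times. The means were 4.92 ± 3.17 CPM (SD, n = 3) and 7.51 ± 4.34 CPM (SD, n = 3). The groups overlapped, since cKO replicate 1 lay below WT replicates 2 and 3. The cKO level was 150.4% of WT, with 95% limits of 73.99% and 306% (log2 fold change 0.59, SE 0.47, edgeR quasi-likelihood adjusted p 0.599). The log2 fold change was 1.23 without WT replicate 2, 1.01 without cKO replicate 1, 0.25 without WT replicate 1 and 0.22 without cKO replicate 2. A correction for GC content and length gave 0.20, and none of these values was called. Without a filter on low counts it passed the threshold (adjusted p 4.5e-04), in a fit that called 757 genes in place of 4.

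Airn (ENSMUSG00000078247, chr17:12741311-12860136, plus strand, 8 exon blocks of 3597 bases in a span of 118826), the transcript that overlaps Igf2r, was close to the limit of detection in its annotated exons. Reads between these exons were not counted for Airn. It had 4, 8 and 8 reads in WT and 8, 11 and 6 in cKO, or 0.068 to 0.197 CPM. It did not pass the filter of a minimum count of 10 and was not tested, and no difference was detectable at this depth.

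**Figure D1:**
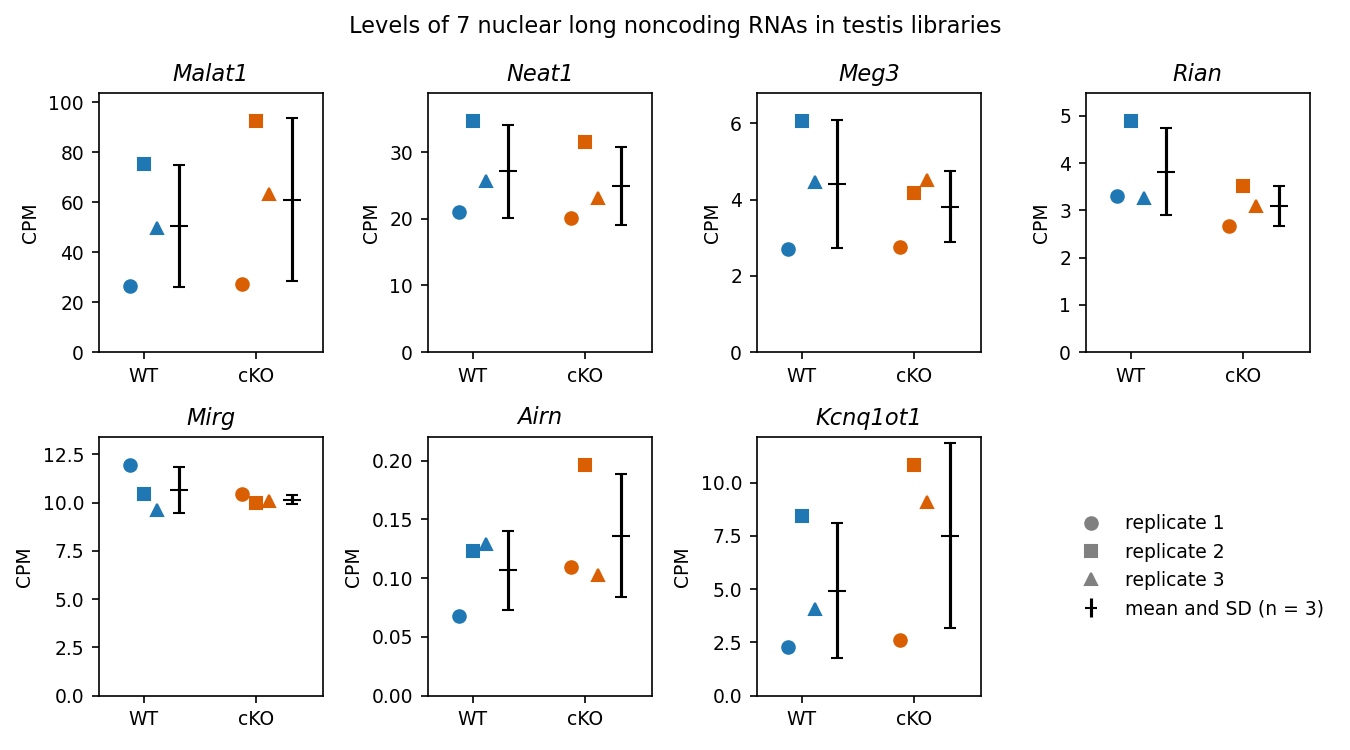
Level of each of the 7 RNAs in CPM (vertical axis, from 0) in the 3 WT libraries (blue) and the 3 cKO libraries (orange), with the replicate number as the symbol and the mean and SD (n = 3) in black. Groups overlap in every panel, and replicate 1 (circle) lies below replicate 2 (square) in both groups for each RNA except Mirg.

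Levels of different genes can be compared only per length, as reads per kilobase of exon at the CPM scaling (RPKM). On that scale Malat1 had a mean of 7.99 RPKM, Mirg 1.43, Neat1 1.25, Meg3 0.227, Rian 0.189, Kcnq1ot1 0.0668 and Airn 0.0338. Malat1, at 3.77 to 13.2 RPKM, lay above all other members in every library. The ranges of Mirg, at 1.32 to 1.64, and Neat1, at 0.972 to 1.67, overlapped, as did those of Meg3, at 0.150 to 0.335, and Rian, at 0.146 to 0.268. Kcnq1ot1, at 0.0243 to 0.117, and Airn, at 0.0189 to 0.0546, overlapped too. The lengths used are all annotated exons of a gene merged, which can exceed a single transcript. The longest transcript has 14548 of 18089 bases in Meg3, 8089 of 18234 in Rian and 3822 of 7292 in Mirg. Neat1 has 4 annotated transcripts. Forms were not told apart, so this order need not be that of molecules. The value of Airn covers its annotated exons alone, 3597 of 118826 bases, whereas Kcnq1ot1 was counted over its whole span. Malat1 supplied 39.0% to 60.6% of the reads of the 7 genes.

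Across the group comparison, 0 of the 6 tested members passed the threshold of 0.05 on edgeR's quasi-likelihood adjusted p, where 4 of 21902 genes did (0.0183%). None was under an unadjusted p of 0.05 either, against 13.9% of all genes (7.33% higher and 6.54% lower in cKO), and DESeq2 called 0 of the 5 for which it gave an adjusted p. Groups that did not overlap were found for 0 of the 7 members and for 18.9% of all tested genes. The 95% limits of Malat1 and Kcnq1ot1 reach 215% and 306% of WT, and those of Mirg stop at 82.3% and 110.1%. The estimates of Malat1, Neat1, Meg3 and Mirg changed sign when particular libraries were left out, so no direction is given for them. A replicate block in the model gave log2 fold changes of 0.24 (SE 0.070) for Malat1 and -0.12 (SE 0.068) for Neat1. It gave -0.18 (SE 0.13) for Meg3 and -0.069 (SE 0.086) for Mirg, and 0 members were called. In bulk tissue, fewer cells of a type and less RNA per cell cannot be told apart, in these comparisons or in those that follow.

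**Figure D2:**
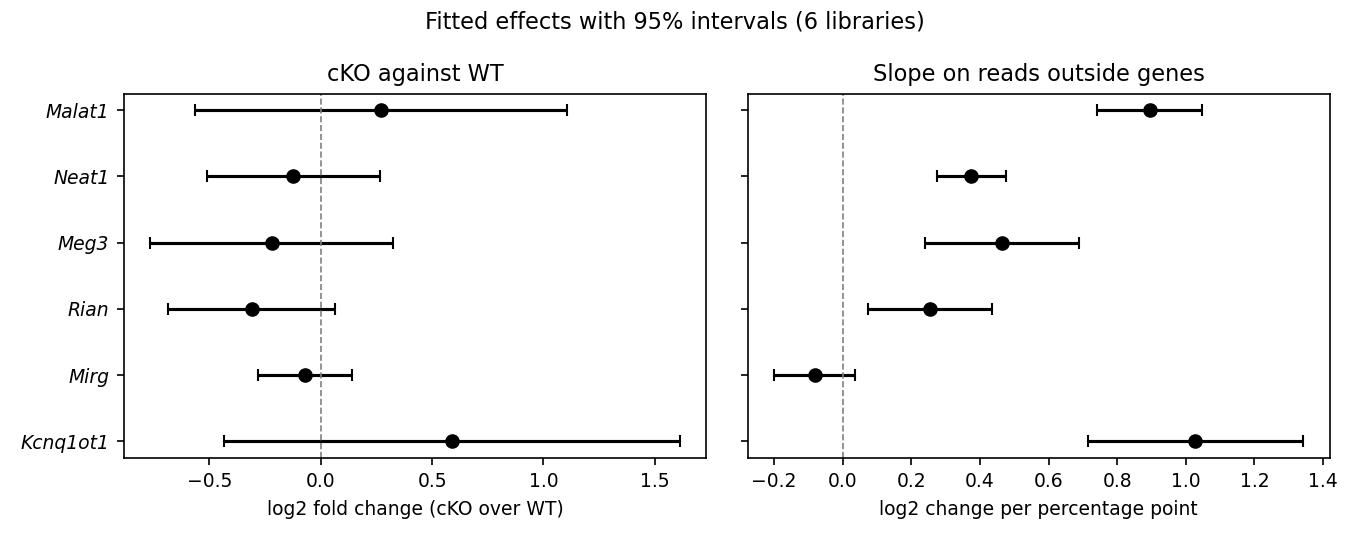
Fitted effects of the 6 tested members as points with 95% intervals from 6 libraries, as log2 fold change of cKO over WT (left) and as log2 change per percentage point of reads outside genes (right). All 6 intervals on the left include 0, and on the right those of Malat1, Kcnq1ot1, Meg3, Neat1 and Rian lie above 0.

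The tables also give, for each library, the reads that mapped to a place but overlapped no annotated exon on the counted strand, which takes in introns and the space between genes. This share of all reads was 4.98%, 6.65% and 6.08% in WT replicates 1 to 3 and 5.05%, 6.94% and 5.85% in cKO replicates 1 to 3. Replicate 1 was low and replicate 2 was high in both groups. The means were 5.90% ± 0.849 (SD, n = 3) in WT and 5.94% ± 0.951 (SD, n = 3) in cKO, with an exact two-sided permutation p of 0.9, where 3 libraries against 3 cannot go below 0.1. Reads counted for the 7 RNAs are not part of this share, but reads in introns of Meg3, Rian, Mirg and Airn can fall in it. Since both numbers 1 are low and both numbers 2 high, the share and the replicate number cannot be told apart within groups.

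Member levels were then fitted on this share with the group in the same edgeR model, and the slope is the log2 change in level for each percentage point of reads outside genes. Of the 6 tested members, 4 rose with the share and 0 fell at an adjusted p of 0.05. Of all 21902 genes, 749 rose (3.42%) and 311 fell (1.42%), 4.84% together. At an unadjusted p under 0.05 there were 5 of the 6 members, Rian included, and 22.6% of all genes.

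Malat1 had a slope of 0.89 (SE 0.071), or 1.86 times the level for each point, with 95% limits of 1.67 and 2.06 (edgeR quasi-likelihood adjusted p 5.2e-05). Its level was 26.3 CPM at a share of 4.98%, 27.4 at 5.05%, 63.2 at 5.85%, 49.8 at 6.08%, 75.4 at 6.65% and 92.5 at 6.94%. It thus increased with the share over all 6 libraries but for the exchange of cKO replicate 3 and WT replicate 3. Kcnq1ot1, with the steepest slope of the members at 1.03 (SE 0.147), had 2.04 times the level for each point (95% limits 1.64 and 2.54, adjusted p 0.00229). Its order of libraries was again that of the share but for cKO replicate 3, which stood just below cKO replicate 2.

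Neat1 had a slope of 0.37 (SE 0.047), or 1.30 times for each point, with 95% limits of 1.21 and 1.39 (edgeR quasi-likelihood adjusted p 0.00122). Meg3 had 0.46 (SE 0.105), or 1.38 times (adjusted p 0.0249). Rian had 0.25 (SE 0.085) and did not pass (adjusted p 0.0955), and Mirg had -0.08 (SE 0.055, adjusted p 0.398). Among all tested genes, 99.8% had a smaller slope than Kcnq1ot1, 99.7% than Malat1, 97.3% than Meg3, 95.8% than Neat1, 91.3% than Rian and 20.9% than Mirg. Airn, not tested, had its fewest reads in WT replicate 1, which had the lowest share, and its most in cKO replicate 2, which had the highest.

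With a replicate block beside the share, 0 members and 0 genes were called. The slopes were then -0.14 for Malat1, 0.056 for Neat1, -0.99 for Meg3, -0.74 for Rian and -1.52 for Kcnq1ot1. Their SE rose to 0.31 to 0.52, from 0.047 to 0.147 without the block. The share goes with the replicate number, so this fit could not settle whether the slopes hold apart from that number. Malat1, Neat1 and Kcnq1ot1 were called in each of the 6 fits without a library. Meg3 lost its call without WT replicate 1 (edgeR quasi-likelihood adjusted p 0.0619), WT replicate 2 (0.122) or cKO replicate 1 (0.178), and with the share as the only term Meg3 (0.121) and Kcnq1ot1 (0.0650) were not called. The slopes also changed in size: without both WT replicate 1 and cKO replicate 2, the 2 farthest from the median share, they were 2.10 for Kcnq1ot1, 1.34 for Malat1, 0.83 for Meg3 and 0.40 for Neat1.

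**Figure D3:**
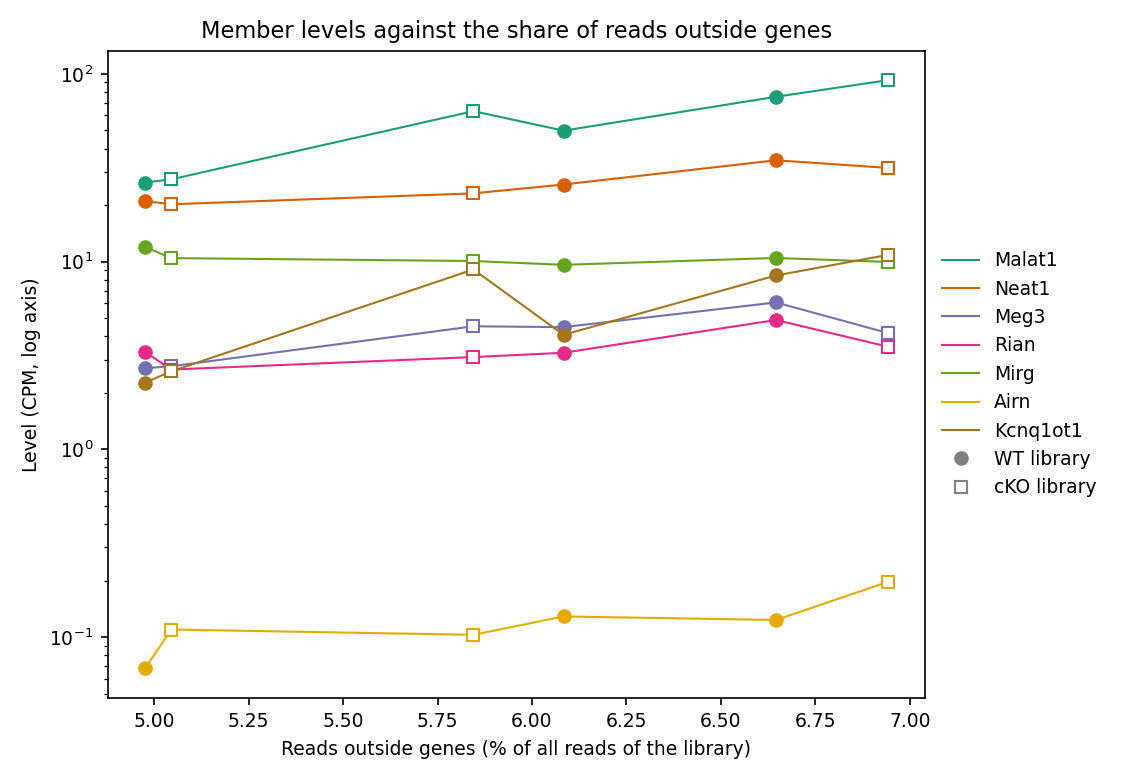
Level of each RNA in CPM (vertical log axis) against the share of reads outside genes in percent of all reads (horizontal axis) for the 3 WT libraries (filled circles) and the 3 cKO libraries (open squares), with lines joining the points of an RNA. Malat1 goes from 26.3 CPM at 4.98% to 92.5 CPM at 6.94%, and Mirg stays between 9.60 and 11.96 CPM.

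**Figure D4:**
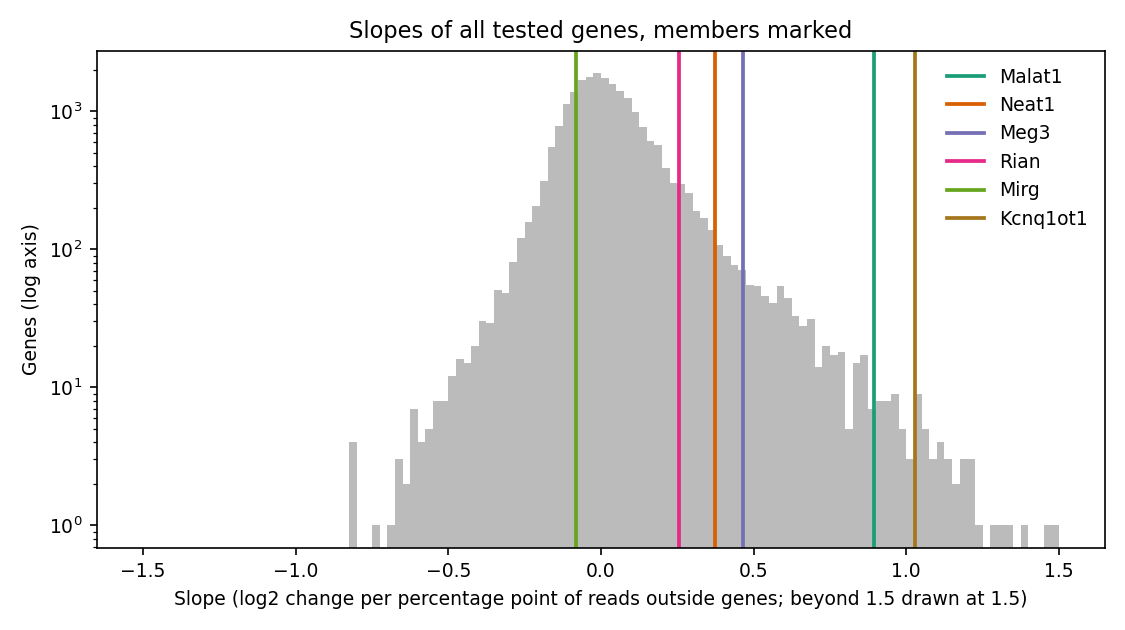
Number of the 21902 tested genes (vertical log axis) by slope on the share of reads outside genes (horizontal axis, log2 per percentage point), with the 6 tested members as vertical lines. Malat1 and Kcnq1ot1 stand in the upper tail and Mirg in the lower part of the main body.

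The members with steep slopes also varied together. Malat1 and Kcnq1ot1 had a Pearson r of 0.97 over the 6 libraries, Malat1 and Neat1 0.87, Neat1 and Rian 0.86 and Malat1 and Meg3 0.85. Mirg ran the other way, with an r of -0.62 to Malat1. Among the 16830 genes averaging 1 CPM or more, the genes most like Malat1 were Myo1e, an unconventional myosin, with an r of 0.999, Gm12940 at 0.998 and Zfp85, a zinc finger gene, at 0.996. Those most like Kcnq1ot1 were Htr5b, a serotonin receptor gene, at 0.996, Crispld1 at 0.996 and 4921527H02Rik at 0.992. For Neat1 they were 4933432I09Rik, Fancd2os and Gm15674, each at 0.992 to 0.994, and for Meg3 Ms4a6c, Gm39662 and 4930429F24Rik at 0.993 to 0.995. For Rian they were Memo1, Stpg2 and Lhx9 at 0.990 to 0.994. An r of at least 0.95 was found for 131 genes with Malat1, 97 with Meg3, 92 with Neat1, 80 with Kcnq1ot1, 28 with Rian and 5 with Mirg, whose nearest was Suclg1 at 0.986.

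Slopes differed by gene class and by length, both of which set the members apart from the average gene. Slopes were positive for 47.5% of tested protein-coding genes, 72.5% of lincRNA genes, 64.6% of antisense genes and 71.6% of genes of the class processed transcript. Among noncoding genes of these 3 classes with at least 8000 bases of exon, 93.5% of 46 had a positive slope. Their median was 0.24, and 23.9% rose at the adjusted threshold. The 46 include Neat1, Meg3, Rian and Kcnq1ot1 themselves, so they are not a background apart from the members. Protein-coding genes of that length had a median of 0.05, with 70.3% positive and 8.36% called higher. Against the 6664 tested genes of at least 5000 bases, of every class, the places of the members were similar: 99.9% had a smaller slope than Kcnq1ot1 or Malat1, 98.5% than Meg3, 97.5% than Neat1, 94.0% than Rian and 11.9% than Mirg. Against 269 noncoding genes of a single exon block, which include Malat1, Neat1 and Kcnq1ot1, most places were lower. There, 99.6% had a smaller slope than Kcnq1ot1, 99.3% than Malat1, 94.8% than Meg3, 92.2% than Neat1, 85.9% than Rian and 25.7% than Mirg.

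A correction for GC content and exonic length, added after the data had been seen, left all 4 members called. The slopes were then 0.83 for Malat1, 0.69 for Kcnq1ot1, 0.36 for Meg3 (edgeR quasi-likelihood adjusted p 0.0463) and 0.24 for Neat1 (0.0115), and 0.08 for Rian. It called 572 genes higher and 781 lower, against 749 and 311 without it, so the balance of directions over all genes depended on this choice.

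**Figure D5:**
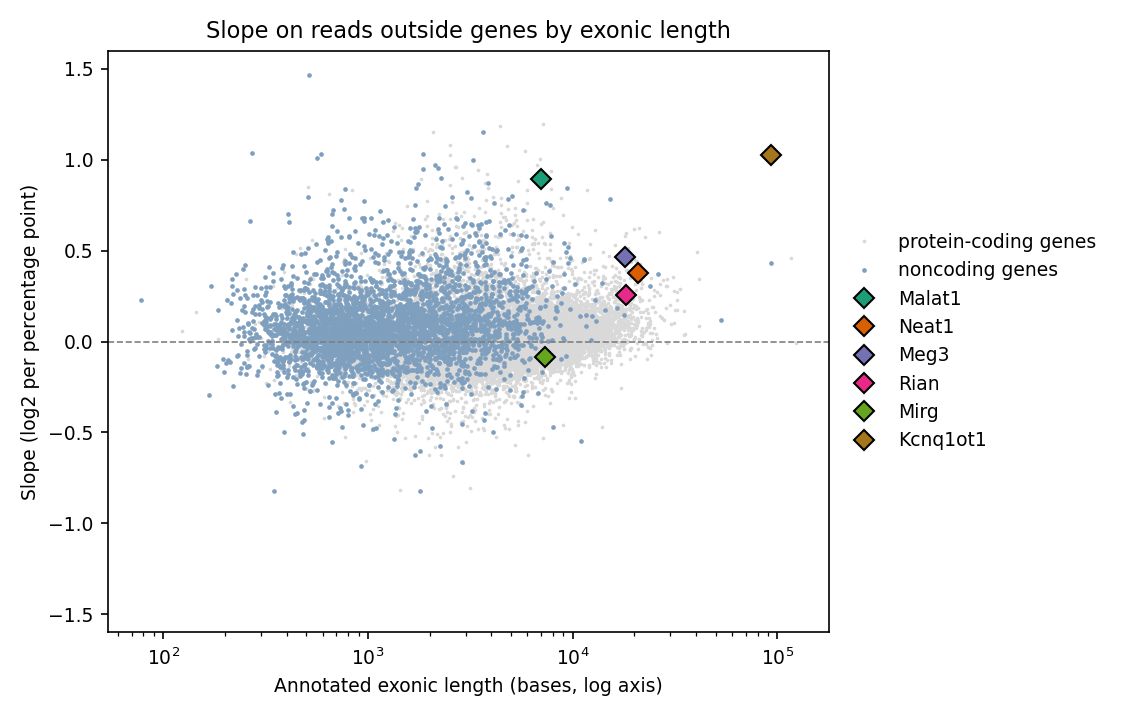
Slope on the share of reads outside genes (vertical axis, log2 per percentage point) against annotated exonic length in bases (horizontal log axis) for protein-coding genes (grey), noncoding genes (blue) and the 6 tested members (diamonds). Malat1, at 6983 bases, and Kcnq1ot1, at 93092, stand above nearly all genes of their length, and Mirg, at 7292 bases, lies just under 0. A gene with a slope beyond 1.6 is not drawn.

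Cell type markers moved with the share as well. Of the 12 Sertoli markers, 5 (Gata1, Clu, Cldn11, Amhr2 and Inha) fell with it at edgeR's adjusted threshold and 0 of 12 had a positive slope. Fits without a library called 0 to 5 of them, with 0 without cKO replicate 1. Their summed level was 1656 to 1964 CPM in WT and 1646 to 2127 CPM in cKO, lowest in both replicates 2. Of 10 Leydig markers Cyp17a1 and Insl3 fell, with sums of 960 to 1119 CPM in WT and 878 to 1118 CPM in cKO, and of 12 spermatogonial markers Dmrt1 and Uchl1 fell, with sums of 371 to 417 CPM in WT and 404 to 427 CPM in cKO. Of 10 macrophage markers, 9 had a positive slope and 1, Cd163, rose (sums of 137 to 168 CPM in WT and 134 to 153 CPM in cKO), and of 7 peritubular myoid markers Myh11 rose (385 to 418 CPM and 382 to 394 CPM). These calls changed with the libraries fitted. There were 0 Leydig calls lower without cKO replicate 1 or cKO replicate 2, 0 spermatogonial ones without cKO replicate 1 and 4 without cKO replicate 2, and 0 myoid ones without cKO replicate 1 or cKO replicate 2. Macrophage calls were 0 without WT replicate 1, WT replicate 2, cKO replicate 1 or cKO replicate 3, and 4 without cKO replicate 2. With all 6 libraries, 0 markers of spermatocytes, round or elongating spermatids, endothelium, fibroblasts, epididymis or blood passed. Without WT replicate 1, 5 of 10 elongating spermatid markers were called lower, without cKO replicate 2, 2 of 7 fibroblast markers higher, and with the GC and length correction 4 of 12 spermatocyte markers lower and 5 of 12 spermatogonial ones. Apart from the epididymis list, no marker was at 0 in all libraries. The part of these markers in the slopes of the members was not tested.

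The proximal promoters of the 3 rising members for which RefSeq (GRCm38.p6) has an entry are shown, from 250 bases before to 50 after the start, in the direction of transcription. Malat1 (chr19:5802623-5802922, minus strand) has capitals at TGACGT, the core of the cAMP response element, found on either strand. It occurs 2 times, and 7.51% of 32851 mouse promoters of this length hold it.
Malat1 promoter: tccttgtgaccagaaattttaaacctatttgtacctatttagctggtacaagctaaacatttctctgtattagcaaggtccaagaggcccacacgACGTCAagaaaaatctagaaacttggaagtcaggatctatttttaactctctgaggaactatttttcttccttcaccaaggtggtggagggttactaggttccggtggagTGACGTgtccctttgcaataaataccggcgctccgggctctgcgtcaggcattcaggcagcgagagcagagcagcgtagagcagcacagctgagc

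Meg3, at the upstream of its RefSeq starts (chr12:109540746-109541045, plus strand), has capitals at TGACGTCA, the full palindrome, which 1.79% of promoters hold and which contains TGACGT on both strands.
Meg3 promoter: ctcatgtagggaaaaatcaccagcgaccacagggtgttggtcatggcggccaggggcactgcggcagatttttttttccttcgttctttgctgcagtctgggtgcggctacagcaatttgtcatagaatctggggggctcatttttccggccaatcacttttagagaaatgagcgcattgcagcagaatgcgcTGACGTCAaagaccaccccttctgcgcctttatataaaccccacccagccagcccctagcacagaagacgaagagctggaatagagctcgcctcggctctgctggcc

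Kcnq1ot1 (chr7:143296498-143296797, minus strand) has capitals at CCAAT, the box bound by NF-Y, searched on both strands. It has 3 matches, whereas 37.4% of promoters have at least 1 and 3.37% at least 3.
Kcnq1ot1 promoter: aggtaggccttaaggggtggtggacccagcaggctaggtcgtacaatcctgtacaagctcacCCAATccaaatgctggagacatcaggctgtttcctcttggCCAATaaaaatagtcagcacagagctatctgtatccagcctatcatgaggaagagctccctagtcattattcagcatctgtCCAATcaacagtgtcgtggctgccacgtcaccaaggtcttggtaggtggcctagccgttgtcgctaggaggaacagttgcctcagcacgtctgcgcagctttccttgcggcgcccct

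Kcnq1ot1 also held TGACGT 1 time. The promoters of Rian, Mirg and Airn held no TGACGT, and Mirg had 1 CCAAT, as did the Meg3 promoter shown. The window at the other RefSeq start of Meg3 held none of these motifs. The motif marked differs between the genes, and a link of motifs to slopes was not tested. A match describes letters in the window and not a bound site. Within the longest transcripts, AGCCC, a pentamer linked to nuclear retention, occurred 0.716 times per kilobase in Malat1, 0.818 in Neat1, 0.956 in Kcnq1ot1 and 0.371 in Rian, below the median of 0.991 over 4712 noncoding genes. Meg3 with 1.86, Mirg with 2.09 and Airn with 2.18 lay above it.

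Other RNAs of the nucleus were compared with the members. Of 15 other nuclear long noncoding RNAs, 13 were tested, and 13 of 13 had a positive slope on the share, with a median of 0.21 against 0.0085 over all genes. Tug1, which represses genes in several tissues, had 75.0, 84.4 and 83.6 CPM in WT and 74.3, 102.8 and 91.2 CPM in cKO, and rose with a slope of 0.18 (SE 0.043, edgeR quasi-likelihood adjusted p 0.0300). Dleu2, the host of a microRNA cluster, had 4.37, 8.23 and 7.63 CPM in WT and 4.70, 7.72 and 6.40 CPM in cKO, and rose with a slope of 0.45 (SE 0.070, adjusted p 0.00387). In both genes replicate 1 was the lowest of its group and the groups overlapped. Without cKO replicate 1 or WT replicate 3 there was 1 call in the list. With the GC and length correction there was also 1 call, and 12 of 13 slopes were positive. Small nucleolar RNA hosts and cytoplasmic long noncoding RNAs gave 0 calls among 16 tested, with 12 positive and a median of 0.09. Without cKO replicate 2 they gave 1 call with 14 of 16 positive, and with the correction 0 calls with 10 positive. Between WT and cKO, 0 genes of either list passed the adjusted threshold. Pvt1, next to Myc, had the lowest unadjusted p of the nuclear list (0.00907), with 9.56 ± 1.42 CPM (SD, n = 3) in WT and 7.46 ± 0.504 CPM (SD, n = 3) in cKO.

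Proteins of the bodies that Malat1 and Neat1 belong to were examined next. Of 24 paraspeckle protein genes, 0 followed the share. Between WT and cKO, 0 passed the adjusted threshold, and 12 were higher in cKO at an unadjusted p under 0.05 and 0 lower, where 7.33% of all genes were higher at that p. Taf15, an RNA-binding protein of the FET family, had 44.8, 45.4 and 42.6 CPM in WT and 50.3, 57.5 and 51.2 CPM in cKO, without overlap (log2 fold change 0.26, SE 0.073, edgeR quasi-likelihood adjusted p 0.278). Hnrnpr had 64.6 ± 0.975 CPM (SD, n = 3) and 74.9 ± 5.66 CPM (SD, n = 3), and Smarca4, the ATPase of BAF chromatin remodellers, 202.7 ± 13.4 CPM (SD, n = 3) and 236 ± 14.7 CPM (SD, n = 3). The count of 12 was 4 without WT replicate 2, 3 without WT replicate 3 and 4 after the GC and length correction, in fits where the share over all genes was 4.45%, 2.57% and 4.06%. Without the other 4 libraries it was 8 to 11. For Neat1, which these proteins coat, no difference between the groups was detected (adjusted p 0.802, from the same edgeR fit).

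Of 24 genes for nuclear speckle and splicing proteins, 3 rose with the share: Srrm2 and Son, the scaffold proteins of speckles, and Clk1, a kinase of splicing factors. Srrm2 had 199, 233 and 216 CPM in WT and 214, 353 and 298 CPM in cKO, with a slope of 0.26 (SE 0.053, edgeR quasi-likelihood adjusted p 0.0165). The slope of Son was 0.18 (adjusted p 0.0368) and that of Clk1 0.24 (adjusted p 0.0116). Fits without a library called 0 to 3 of them, with 0 without cKO replicate 1, and the GC and length correction left 1. Between the groups, 10 of the 24 were higher in cKO at an unadjusted p under 0.05 and 0 lower, with 0 at the adjusted threshold and 7.33% of all genes higher at that p. Without cKO replicate 1, 4 of the 24 were called higher at the adjusted threshold, in a fit that called 2.47% of all genes higher. The count of 10 was 6 without WT replicate 2, WT replicate 3 or cKO replicate 2 and 6 with the correction. In these fits the share over all genes was 4.45%, 2.57%, 4.29% and 4.06%. The lowest p was that of Prpf8, the core protein of the spliceosome, at 268.8, 249.9 and 263 CPM in WT and 292, 333 and 323 CPM in cKO (log2 fold change 0.28, adjusted p 0.276), followed by Pnn and Acin1.

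Of 22 genes for the 3′ processing, triple helix and nuclear decay of such RNAs, 1 rose with the share, Zfc3h1, a part of the exosome targeting connection, with a slope of 0.18 (edgeR quasi-likelihood adjusted p 0.0336). Without WT replicate 2, WT replicate 3 or cKO replicate 1 the list had 0 calls, and with the GC and length correction it had 1 higher and 2 lower. Between the groups 0 passed, and the lowest p were those of Zc3h3 (log2 fold change 0.27), Trnt1 (-0.21), which adds CCA to tRNA-like ends, and Rbm7 (-0.21), with adjusted p of 0.305, 0.323 and 0.340.

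The lists of protein-coding genes in and around the 3 imprinted domains gave 0 calls between the groups and 1 on the share. Without cKO replicate 1, the Dlk1-Dio3 list had 1 gene called higher in cKO and the Airn list had 1. That fit called 2.47% of all genes higher in cKO. In the Kcnq1ot1 list, 11 of 14 genes were tested and 0 of 11 had a positive slope, with a median of -0.12 and 0 calls, where Kcnq1ot1 had 1.03. With each library left out in turn, 0 or 1 of its genes had a positive slope. Without WT replicate 1, and with the GC and length correction, 1 gene of that list was called lower. Cdkn1c, a cell cycle inhibitor that Kcnq1ot1 silences in other tissues, had 15.0, 15.3 and 16.0 CPM in WT and 14.9, 10.2 and 17.2 CPM in cKO, with overlap and a slope of -0.15 (edgeR quasi-likelihood adjusted p 0.313). Phlda2 had 0.217 ± 0.0496 CPM (SD, n = 3) in WT and 0.109 ± 0.0366 CPM (SD, n = 3) in cKO. It had the lowest p of that list between the groups (edgeR quasi-likelihood unadjusted p 0.0316, adjusted p 0.323).

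In the list of genes in and around the Dlk1-Dio3 domain, 7 of 9 were tested. Dlk1, the paternal gene of the domain, had 1.14 to 1.24 CPM in WT and 1.05 to 1.55 CPM in cKO (log2 fold change 0.06, edgeR quasi-likelihood adjusted p 0.918), and Rtl1 had no reads. Dync1h1, the heavy chain of cytoplasmic dynein, was the only gene of the list that rose with the share (slope 0.29, adjusted p 0.0217), and it lost the call without cKO replicate 1 or cKO replicate 2. In the Airn list 8 of 12 genes were tested and 0 followed the share, while with the GC and length correction 2 were called lower. Igf2r, the receptor that Airn silences in other tissues, had 26.1, 23.6 and 25.7 CPM in WT and 26.5, 33.7 and 32.8 CPM in cKO, without overlap. It was higher in cKO by 0.30 on the log2 scale (SE 0.094), a difference that did not pass over all genes (unadjusted p 0.00783, edgeR quasi-likelihood adjusted p 0.288). It was the only neighbour under an unadjusted p of 0.05 among 10 tested of the 37 annotated genes within 3 places of a member.

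Of 14 imprint and Polycomb regulators, 1 rose with the share, Zfp445, which guards imprints (slope 0.22, edgeR quasi-likelihood adjusted p 0.0224). Without cKO replicate 1 or cKO replicate 2 no gene of this list rose, and without cKO replicate 2, 2 were called lower with the share. Between the groups 0 passed, and 3 were higher in cKO at an unadjusted p under 0.05, where 7.33% of all genes were. Without cKO replicate 1, 1 was called higher at the adjusted threshold, in a fit that called 2.47% of all genes higher. The count of 3 was 1 without WT replicate 2 (4.45% of all genes) or cKO replicate 2 (4.29%). It was also 1 with the GC and length correction (4.06%). It was 2 without WT replicate 3 (2.57%) or cKO replicate 3 (4.06%) and 6 without cKO replicate 1 (10.3%). Hnrnpu, a nuclear matrix protein, had the lowest p, with 552 ± 22.3 CPM (SD, n = 3) in WT and 666 ± 58.2 CPM (SD, n = 3) in cKO (log2 fold change 0.27, adjusted p 0.276), and the others were Dnmt1 and Ehmt1.

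Counting bears on the members in 3 ways. Of the 31-base words of the transcripts, 11.4% in Meg3, 6.81% in Malat1, 4.50% in Kcnq1ot1 and 0.692% to 2.81% in the other 4 also occurred in transcripts of other genes, and reads that fit several places are not counted. The column for the other strand held 56 to 106 reads per library for Kcnq1ot1, whose annotation overlaps exons of Kcnq1, and 0 to 9 for each of the other 6. The transcript Gm37376 lies opposite Malat1 over 453 bases and had 0 reads on its own strand in all 6 libraries together.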

How the data were processed

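The deposited tables hold whole-number read counts per gene for each of the 6 libraries, in 3 columns (unstranded and the 2 strands), with no normalisation by the authors, as the deposited files show. STAR, HTSeq, DESeq2 and the build mm10 are named in the submitters' processing notes. Versions, the annotation release and the library kit are not given in the sources used here. The opposite-strand column was used. Unmapped, multimapping, outside-gene and ambiguous reads, 14.8% to 16.7% of a library, stayed out of library sizes and tests.

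GENCODE M21 (mm10) matched 52093 of 53700 identifiers and gave coordinates and lengths, and promoters came from RefSeq GRCm38.p6, which has entries for 6 of 7 members. Counts were scaled by edgeR's TMM, filtered by filterByExpr (minimum count 10) and fitted in edgeR 4.0.16 (R 4.3.3), with quasi-likelihood F tests of cKO against WT and, with group as a second term, of the slope on the share of reads outside genes, and Benjamini-Hochberg adjustment over 21902 genes at 0.05. CPM use TMM library sizes, and the SE comes from the F statistic. Scripts were tested on simulated data. Genes named were the members and Msl3, list genes past the threshold or with the 3 lowest p, neighbours under 0.05 and the 3 most alike genes. Dlk1 and Rtl1 were added after their values were seen. Members and lists were chosen with earlier results of these data known.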

Additional observations from a re-analysis of the deposited data

How the results depend on the processing

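Between the groups, 0 members were called with relative log expression (RLE) scaling, library totals, at least 10 reads in every library, unstranded counts, the replicate block, the share as a covariate, robust fitting, DESeq2 1.42.0, a threshold of 0.1 or any library left out. The replicate block gave its lowest member p to Kcnq1ot1 (log2 fold change 0.60, SE 0.146, edgeR quasi-likelihood adjusted p 0.0764), followed by Malat1 (0.111). The share as a covariate gave its lowest to Kcnq1ot1 as well (0.57, SE 0.207, edgeR quasi-likelihood adjusted p 0.135). No filter on low counts called 1, Kcnq1ot1. Genes called, 4 in the report, were 757 without a filter, 2 with unstranded counts, 49 with the replicate block, 44 with the share as a covariate and 193 with DESeq2. The block and covariate fits kept all 4. DESeq2, which gave 13069 genes an adjusted p, had 0 of the 4 among its 193. Without each library they were 1 to 628 (628 without cKO replicate 1, 116 without WT replicate 1). Without each library the log2 fold change ran from -0.16 to 0.68 for Malat1 (below 0 without WT replicate 1 or cKO replicate 2), -0.33 to 0.092 for Neat1 (above 0 without WT replicate 2 or cKO replicate 1), -0.47 to 0.078 for Meg3 (above 0 without WT replicate 2), -0.15 to 0.019 for Mirg (above 0 without WT replicate 1) and 0.22 to 1.23 for Kcnq1ot1. The difference of 0.043 percentage points in the share ran from -0.456 to 0.492, and was below 0 without WT replicate 1 or cKO replicate 2.

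On the share, 4 of 6 members were called, 3 to 4 without each library and 2 with the share alone, where 151 genes were called in place of 1060. Without each library 174 to 1381 genes were called, with 174 without cKO replicate 1 and 329 without WT replicate 2. Without the 2 libraries farthest from the median share, WT replicate 1 and cKO replicate 2, the slopes were 2.10 for Kcnq1ot1 and 1.34 for Malat1. They were 0.83 for Meg3, 0.40 for Neat1 and 0.010 for Mirg. That fit called 4 members, but few libraries remained beside its share and group terms. Its edgeR quasi-likelihood adjusted p fell to 2.0e-45 for Malat1 and 8.9e-35 for Kcnq1ot1, so its calls are not read as a check of the slopes. With a replicate block beside the share term, 0 members and 0 genes were called. The slopes were then -0.14 for Malat1, 0.056 for Neat1, -0.99 for Meg3, -0.74 for Rian and -1.52 for Kcnq1ot1. Their SE were 0.31 to 0.52, so that fit could not settle the slopes. Deviations from the group mean correlated at 0.35, 0.26 and -0.05 between libraries of the same number, and those numbered 3 correlated best with another number, so the numbers were not taken as a pairing. The causes of these changes were not tested. Airn, at 4 to 11 reads a library, is limited by depth and by the counting of its annotated exons alone.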
